A study of Mus musculus with 24 samples.

Results

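An intracellular Notch1 that cannot dimerize, R1984A, was set against the dimerization-competent form, ICN1, in T6E cells kept in DMSO. T6E cells come from a mouse T-cell leukaemia and need Notch1 signals to grow, and every sample is this 1 line. The members are the 3 arrays titled R1984A-DMSO and the 3 titled ICN1-DMSO, 6 of the 24 arrays of the series. Cells of R1984A-DMSO carried the dimerization-defective intracellular Notch1 and spent 6 hours in DMSO, and cells of ICN1-DMSO carried intracellular Notch1 and were treated alike. The 3 arrays of MigR1-DMSO, cells with the empty MigR1 vector in DMSO, show where either construct stands without it. The same pair of constructs was also measured in 6 other arrays, R1984A-GSI and ICN1-GSI, after 6 hours in 1 uM compound E, a gamma-secretase inhibitor. DMSO is the vehicle, so cleavage of the cells' own Notch receptors was not blocked in the 3 DMSO groups and both constructs were measured on top of it. How transfected cells were selected, and whether the 3 samples of a group were separate cultures, was not stated in the labels.

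Notch receptors are cut by gamma-secretase after a ligand binds, and the freed intracellular part enters the nucleus. There it binds the DNA-binding protein RBPJ and a coactivator of the Mastermind-like (MAML) family. At some genes the binding sites come as a head-to-head pair, on which a pair of complexes touch each other through the ankyrin domain of Notch. R1984A replaces an arginine of that domain and is labelled as dimerization-defective. In T-cell leukaemia Notch1 is known for driving Myc, Hes1, the pre-T-cell receptor gene Ptcra and the mTOR inhibitor gene Deptor, and in thymocytes paired sites have been described at Hes1, Hes5, Nrarp and Ptcra.

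Expression values were read from 24 arrays that measure 19938 named genes, as log2 values between 1.28 and 13.47, with array medians between 3.90 and 4.18. A difference is R1984A minus ICN1 on the log2 scale, with its standard error (SE), so a negative one means lower in R1984A. A gene was called when limma's two-sided moderated test gave an adjusted p (Benjamini-Hochberg, over all genes) under 0.05. Arrays correlated across genes with r of 0.990 to 0.994 within R1984A-DMSO and of 0.991 to 0.994 within ICN1-DMSO, where genes are not independent replicates. A level below the array medians lies in the dim part of the array, where sizes are uncertain. Of 36 measured T-lineage genes 30 stood above the highest array median in at least 1 of the 2 groups, with Cd3e, a chain of the T-cell receptor complex, between 10.34 and 10.62 on the 6 arrays. Of 16 myeloid markers 15 stood below it in both groups, as did 8 of 11 B cell markers.

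The Notch1 probe set was read first. Its log2 values were 6.93, 7.08 and 7.04 in R1984A-DMSO, against 7.28, 7.12 and 7.46 in ICN1-DMSO, and 6.22, 6.28 and 6.17 in MigR1-DMSO. Both constructs thus stood above the empty vector on every array, R1984A by 0.79 (SE 0.13, adjusted p = 0.0010) and ICN1 by 1.06 (SE 0.13, adjusted p = 3.4e-05). R1984A was at -0.27 against ICN1, with a 95% interval of -0.53 to -0.01, and this was not called (adjusted p = 0.68). Whether this probe set reads the constructs, and whether their protein levels differed, was not tested. Maml1, at -0.10 (SE 0.13), and Rbpj, at 0.19 (SE 0.19), the genes of the other 2 parts of the complex, were not called either.

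R1984A-DMSO differed from ICN1-DMSO in 192 genes, 0.963% of those tested. Of these, 140 genes (0.702%) were higher in R1984A-DMSO and 52 (0.261%) were lower. The lower genes changed more, with a median size of 0.95 and 24 genes past 1, against a median size of 0.67 and 17 genes past 1 among the higher ones. With the replicate number of the titles as a block, 456 genes were called, 322 higher and 134 lower, and they held each of the 192. The arrays of one group lay entirely above those of the other in each of the 192 genes, a separation that 6.86% of genes showed with R1984A above and 6.5% with ICN1 above. Leaving out ICN1-DMSO replicate 3 gave 99 genes (64 higher, 35 lower), and leaving out R1984A-DMSO replicate 2 gave 100 (60 higher, 40 lower). The shares of all genes tested, here and below, include dim genes. With only genes above the median mean level kept, 244 were called (184 higher, 60 lower) out of fewer genes tested. For lists of bright genes the shares of all genes are thus a low baseline.

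The 5 largest falls were in Iftap, Tmem255a, Rag1, Zfp750 and Rag2, of which Iftap, Rag2 and Rag1 lie side by side on chromosome 2. Rag1 and Rag2 encode the 2 subunits of the recombinase that cuts antigen receptor genes. Rag1 had log2 values of 5.08, 5.28 and 3.99 in R1984A-DMSO, against 7.86, 7.69 and 7.64 in ICN1-DMSO, and 5.84, 5.40 and 4.43 in MigR1-DMSO. Rag2 read 3.01, 2.50 and 2.61 in R1984A-DMSO, against 5.52, 5.13 and 5.39 in ICN1-DMSO, and 2.96, 2.67 and 2.54 in MigR1-DMSO. Both genes were high in each ICN1-DMSO array and low in the R1984A-DMSO arrays, which overlapped with the empty vector. Rag1 was lower in R1984A by 7.68-fold (-2.94, SE 0.31, adjusted p = 7.7e-06) and Rag2 by 6.25-fold (-2.64, SE 0.21, adjusted p = 3.5e-08).

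Iftap, whose product is known as a partner of intraflagellar transport, lies beside Rag2 and had the largest fall among the genes called. It read 3.36, 3.24 and 3.20 in R1984A-DMSO, against 7.21, 7.28 and 7.21 in ICN1-DMSO, and 4.23, 3.55 and 3.46 in MigR1-DMSO. The difference was -3.96 (SE 0.28, adjusted p = 7.5e-09), or 15.6-fold. Since Iftap and Rag2 read below every array median in R1984A-DMSO, the sizes of their falls are uncertain. In the RefSeq gene order the run of 3 falls was Iftap, Rag2 and Rag1, and the genes next to it on both sides were not called. Lrrc4c was at 0.02 (SE 0.14) and Api5 at -0.14 (SE 0.14) on the Iftap side. On the Rag1 side Traf6, a signalling adaptor, was at -0.03 (SE 0.15) and Prr5l at -0.11 (SE 0.15). Lrrc4c and Prr5l read below every array median, with means of 2.45 and 2.52 in R1984A-DMSO and 2.43 and 2.63 in ICN1-DMSO. Their differences are therefore uncertain. Further on past Prr5l, with Commd9, Ldlrad3 and Trim44 between them and not called, Fjx1 was again lower, by 2.61-fold (-1.38, SE 0.21, adjusted p = 8.7e-04). Fjx1, the mouse relative of a planar polarity regulator of the fly, read 6.60, 6.22 and 6.14 in R1984A-DMSO, against 7.70, 7.67 and 7.76 in ICN1-DMSO. Iftap and Rag2 overlap on opposite strands in RefSeq, so probes of one could read the other, and their positions were not examined.

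The promoters of Rag1 and Iftap are shown as the windows of this run that hold an RBPJ motif core, while the window of Rag2 and a second one of Iftap hold none. Each window holds 250 bases before to 50 after the RefSeq start (GRCm38.p6), written 5′ to 3′ along the gene, and the capitals mark TGGGAA, the core of the RBPJ motif, or its reverse complement TTCCCA. Rag1 is at chr2:101649483-101649782 and Iftap at chr2:101628982-101629281, both on the minus strand.
Rag1: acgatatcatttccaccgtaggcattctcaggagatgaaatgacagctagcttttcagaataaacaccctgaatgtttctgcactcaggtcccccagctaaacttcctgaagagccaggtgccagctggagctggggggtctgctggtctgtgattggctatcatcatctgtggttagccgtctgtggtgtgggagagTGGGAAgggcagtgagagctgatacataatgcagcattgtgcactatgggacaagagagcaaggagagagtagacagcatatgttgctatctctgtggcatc
Iftap: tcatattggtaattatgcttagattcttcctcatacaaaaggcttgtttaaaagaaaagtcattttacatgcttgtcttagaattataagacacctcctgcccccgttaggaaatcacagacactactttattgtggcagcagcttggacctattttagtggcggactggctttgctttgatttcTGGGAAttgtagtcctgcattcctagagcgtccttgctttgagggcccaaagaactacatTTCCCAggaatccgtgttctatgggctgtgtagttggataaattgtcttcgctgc
The Rag1 window holds 1 match, which starts 52 bases before the gene start, and the Iftap window holds 1 match on each strand. The Iftap matches face each other, starting 65 and 5 bases before the gene start, a spacing outside the 15 to 20 bases searched for as a pair.

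**Figure D1:**
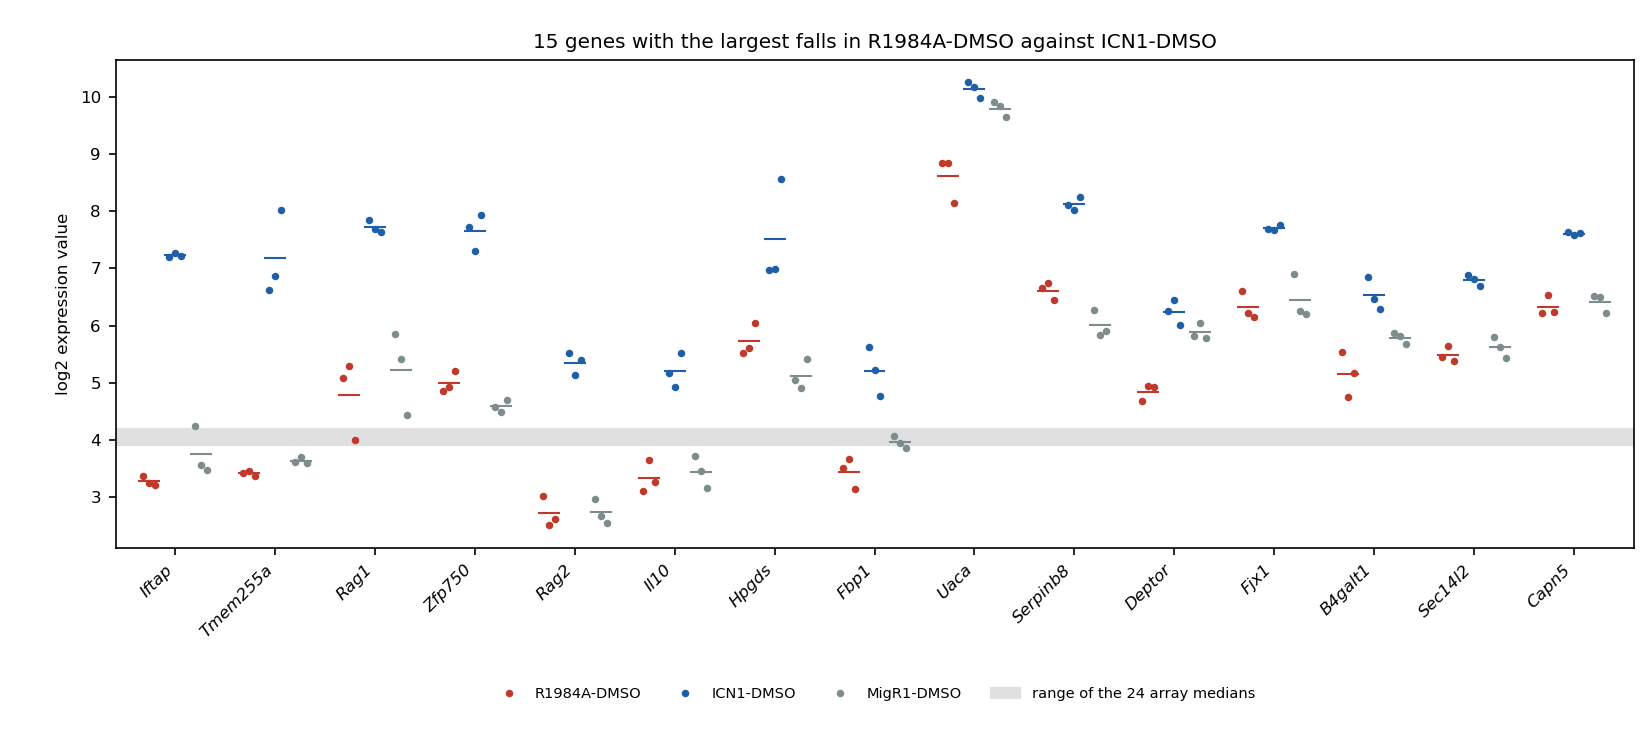
Log2 expression value of the 15 genes with the largest falls, by array, in R1984A-DMSO, ICN1-DMSO and MigR1-DMSO (points, 3 arrays each; bars, group means; grey band, range of the 24 array medians). The ICN1-DMSO points lie above the R1984A-DMSO points in each gene, and Iftap, Tmem255a, Rag2, Il10 and Fbp1 lie below the band in R1984A-DMSO.

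Tmem255a, which encodes a membrane protein, read 3.41, 3.46 and 3.36 in R1984A-DMSO, against 6.63, 6.87 and 8.03 in ICN1-DMSO. Its difference was -3.77 (SE 0.24, adjusted p = 1.1e-09), and its R1984A-DMSO level was dim. Zfp750, a zinc finger transcription factor of epithelial differentiation, read 4.85, 4.92 and 5.20 in R1984A-DMSO, against 7.73, 7.31 and 7.93 in ICN1-DMSO. It was 6.35-fold lower (-2.67, SE 0.15, adjusted p = 3.1e-10), with both groups above the array medians. Il10, the anti-inflammatory cytokine interleukin-10, read 3.09, 3.65 and 3.25 in R1984A-DMSO, against 5.17, 4.92 and 5.51 in ICN1-DMSO. Its difference was -1.87 (SE 0.20, adjusted p = 9.0e-06), from a dim level in R1984A-DMSO, and in each of these 3 genes the groups did not overlap.

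Among metabolic genes, Fbp1, the gluconeogenic enzyme fructose-1,6-bisphosphatase, was lower by 3.42-fold (-1.77, SE 0.22, adjusted p = 4.6e-05), with 3.49, 3.65 and 3.14 in R1984A-DMSO against 5.63, 5.22 and 4.76 in ICN1-DMSO, the R1984A-DMSO arrays being dim. Hpgds, the haematopoietic prostaglandin D synthase, read 5.52, 5.60 and 6.05 in R1984A-DMSO and 6.98, 6.99 and 8.57 in ICN1-DMSO. Its call (-1.79, SE 0.38, adjusted p = 0.017) was lost without ICN1-DMSO replicate 3, the array at 8.57 (adjusted p = 0.19), without R1984A-DMSO replicate 1 (0.095) and without replicate 2 (0.091). Sqle, the cholesterol synthesis enzyme squalene epoxidase, read 8.96, 8.96 and 8.68 in R1984A-DMSO, against 10.02, 10.06 and 10.10 in ICN1-DMSO, and 8.88, 8.87 and 8.66 in MigR1-DMSO. The R1984A-DMSO arrays thus lay at the level of the empty vector, 2.28-fold below ICN1-DMSO (-1.19, SE 0.14, adjusted p = 4.6e-05). Of the 31 measured genes of cholesterol and fatty acid synthesis Sqle was the only one called (3.23%, against 0.963% of all genes tested). The median of that list was 0.05. Nupr1, a stress-induced nuclear protein, was the only one called of 27 amino acid stress genes (3.7%, against the same 0.963%). It was at -1.20 (SE 0.21, adjusted p = 0.0038), and that list had a median of -0.07.

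Serpinb8, an intracellular protease inhibitor, read 6.65, 6.74 and 6.44 in R1984A-DMSO, against 8.11, 8.02 and 8.25 in ICN1-DMSO, and was 2.86-fold lower (-1.52, SE 0.17, adjusted p = 2.2e-05). Capn5, a calpain protease, was lower by 2.44-fold (-1.28, SE 0.16), Sec14l2, a lipid-binding protein, by 2.47-fold (-1.31, SE 0.16) and B4galt1, a galactosyltransferase, by 2.61-fold (-1.38, SE 0.21). In the last 3 the adjusted p was at most 8.5e-04. Uaca, a regulator of apoptosome assembly, was bright and read 8.85, 8.84 and 8.15 in R1984A-DMSO, against 10.27, 10.19 and 9.99 in ICN1-DMSO, and 9.91, 9.85 and 9.65 in MigR1-DMSO. In that gene R1984A-DMSO stood below both other groups, by 1.53 against ICN1-DMSO (-1.53, SE 0.17, adjusted p = 2.2e-05) and by 1.19 against MigR1-DMSO (-1.19, adjusted p = 3.6e-04), where ICN1-DMSO was at 0.34 against MigR1-DMSO (adjusted p = 0.86).

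Of the known Notch1 targets most were not called, and those that were lay in both directions. Of the 4 genes linked to paired sites, 1 was called lower, and the 4 had negative differences with a median of -0.29, where the median of all genes was near 0 (-9e-04). That gene was Ptcra, which encodes the alpha chain of the pre-T-cell receptor. It read 4.11, 4.26 and 4.47 in R1984A-DMSO, against 5.28, 5.12 and 5.19 in ICN1-DMSO, and 4.42, 4.22 and 4.40 in MigR1-DMSO. The R1984A-DMSO arrays overlapped with the empty vector and lay apart from ICN1-DMSO, at -0.92 (SE 0.17, adjusted p = 0.0044), a 1.89-fold difference. Hes1, a transcriptional repressor and the best known Notch target, read 5.16, 5.09 and 4.96 in R1984A-DMSO, against 5.41, 5.46 and 5.46 in ICN1-DMSO, and 4.81, 4.84 and 4.77 in MigR1-DMSO. Its 3 groups did not overlap, with R1984A-DMSO between the others, yet the difference of -0.37 (95% interval -0.66 to -0.08) was not called (adjusted p = 0.39).

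The other 2 paired-site genes were nearer to 0. Nrarp, a feedback inhibitor of Notch, read 6.04, 6.18 and 6.24 in R1984A-DMSO, against 6.21, 6.53 and 6.32 in ICN1-DMSO, and 5.12, 5.41 and 5.38 in MigR1-DMSO. Both constructs raised it over the empty vector, R1984A by 0.85 (SE 0.11, adjusted p = 7.0e-05) and ICN1 by 1.05 (SE 0.11, adjusted p = 2.8e-06), and the 2 constructs overlapped. R1984A was at -0.20 against ICN1, with a 95% interval of -0.42 to 0.02. Hes5, a repressor of the same family as Hes1, was at -0.13 (-0.42 to 0.17), with all 3 groups overlapping.

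Myc, the growth regulator that Notch1 drives in this leukaemia, read 8.68, 8.65 and 8.44 in R1984A-DMSO, against 9.48, 9.53 and 9.53 in ICN1-DMSO, and 9.32, 9.27 and 9.24 in MigR1-DMSO. R1984A-DMSO lay below both other groups on every array, 1.90-fold below ICN1-DMSO (-0.92, SE 0.21, adjusted p = 0.027). That call was lost in each of the 6 fits that left out 1 array, at adjusted p of 0.090, 0.097 and 0.12 without ICN1-DMSO replicate 1, 2 and 3, and 0.073, 0.085 and 0.14 without R1984A-DMSO replicate 1, 2 and 3. Those fits had no block, and in limma's fit of all arrays with the replicate block Myc was called (blocked adjusted p = 0.0030). Against MigR1-DMSO, R1984A-DMSO was at -0.69 (SE 0.21, adjusted p = 0.20), not called. Deptor, an inhibitor of mTOR, read 4.67, 4.93 and 4.92 in R1984A-DMSO, against 6.26, 6.44 and 6.01 in ICN1-DMSO, and 5.82, 6.05 and 5.78 in MigR1-DMSO. It was 2.63-fold lower than in ICN1-DMSO (-1.40, SE 0.15, adjusted p = 1.5e-05) and was also called lower than in MigR1-DMSO (-1.05, SE 0.15, adjusted p = 4.0e-04), where ICN1-DMSO was at 0.35 (adjusted p = 0.72).

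Several other targets had no call between the constructs, and Hey1 was bright in the empty vector too. Hey1, a repressor of the Hes family, read 10.06, 10.01 and 10.02 in R1984A-DMSO, against 9.94, 9.98 and 9.91 in ICN1-DMSO, and 9.89, 9.79 and 9.69 in MigR1-DMSO. Its difference between the constructs was 0.08 (95% interval -0.14 to 0.30). Dtx1, a ubiquitin ligase of the pathway, was at 0.06 (-0.37 to 0.48), and Il2ra, which encodes interleukin-2 receptor alpha, at 0.04 (-0.25 to 0.34). Il2ra was called above MigR1-DMSO in both constructs, at 0.66 in R1984A-DMSO (SE 0.14, adjusted p = 0.017) and 0.62 in ICN1-DMSO (SE 0.14, adjusted p = 0.037). Notch3, a receptor gene that Notch1 activates, read 7.05, 6.92 and 7.03 in R1984A-DMSO, against 6.68, 6.36 and 6.73 in ICN1-DMSO, and 6.11, 6.25 and 5.81 in MigR1-DMSO. Its 3 groups did not overlap and R1984A-DMSO was the highest, but 0.41 (0.13 to 0.69) was not called against ICN1-DMSO (adjusted p = 0.24), while 0.94 over MigR1-DMSO was (SE 0.14, adjusted p = 3.0e-04). Igf1r, a growth factor receptor, was at -0.01 (-0.26 to 0.24) and Il7r, the interleukin-7 receptor, at -0.12 (-0.38 to 0.13), the last below every array median. In Igf1r both constructs overlapped with MigR1-DMSO (7.07, 7.04 and 6.89).

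**Figure D2:**
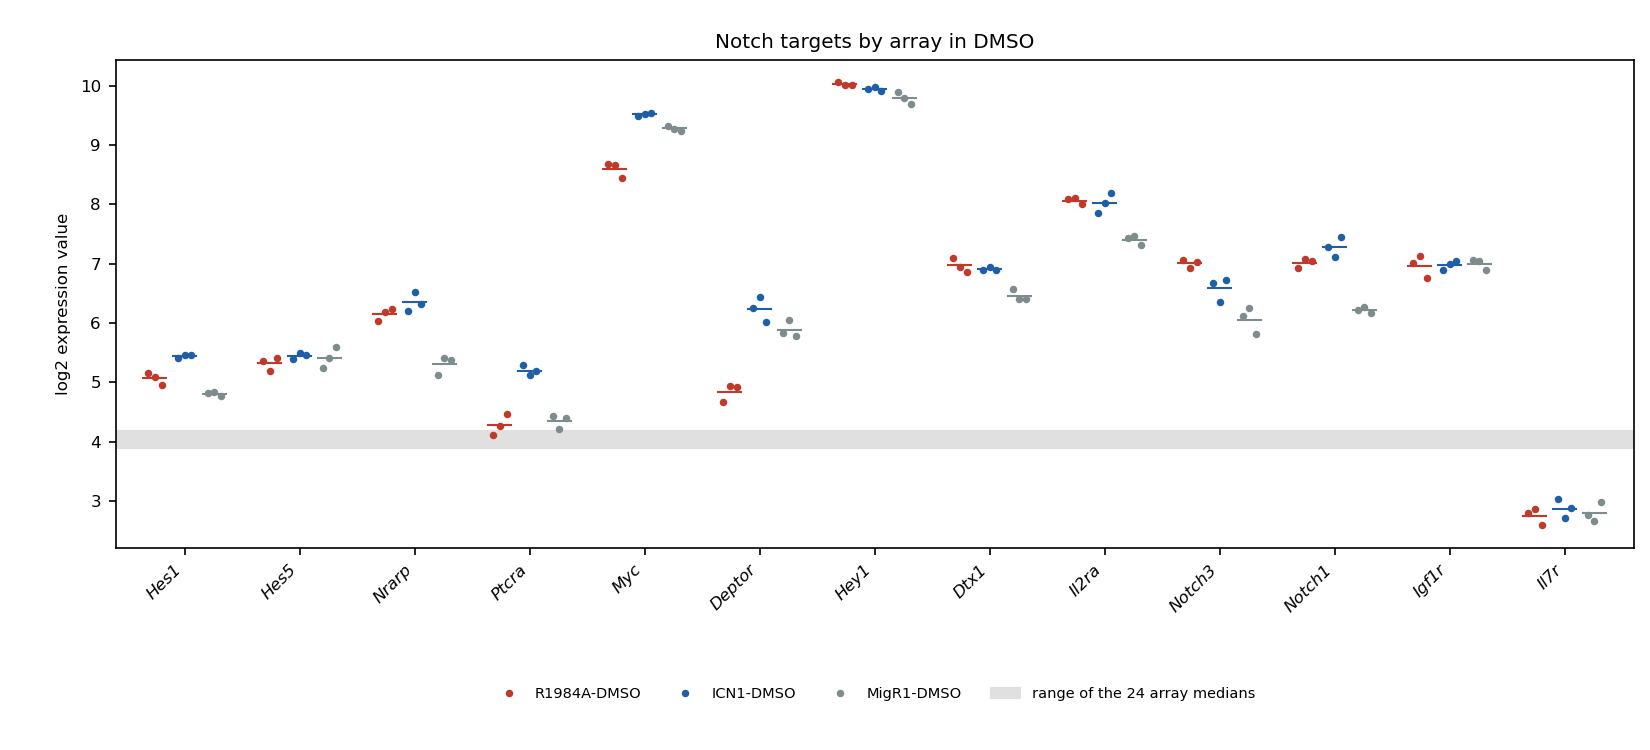
Log2 expression value of Notch targets by array in R1984A-DMSO, ICN1-DMSO and MigR1-DMSO (points, 3 arrays each; bars, group means; grey band, range of the 24 array medians). Ptcra, Myc and Deptor are separated between the constructs and were called, while Hey1, Dtx1 and Il2ra lie side by side.

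Of the 31 measured Notch targets 5 were lower (Rag1, Deptor, Myc, Ptcra and Ccr7), 2 were higher (Runx3 and Cdk6) and 24 were not called, with 16 of 31 differences negative and a median of -0.01. Called genes made up 22.6% of the list, against 0.963% of all genes tested. The last 3 named were picked after their values were seen. Ccr7, a chemokine receptor, was at -0.71 (SE 0.16, adjusted p = 0.021), Runx3, a transcription factor of T-cell development, at 0.51 (SE 0.12, adjusted p = 0.043), and the cell-cycle kinase Cdk6 at 0.49 (SE 0.11, adjusted p = 0.021). The last 2 lost their calls when arrays were centred on their medians (adjusted p = 0.33 for Runx3 and 0.12 for Cdk6), and in the fits with 1 array left out the list held 0 to 1 higher and 3 to 4 lower genes. Those fits gave Runx3 adjusted p of 0.096, 0.16 and 0.17 without ICN1-DMSO replicate 1, 2 and 3 and of 0.24, 0.13 and 0.055 without R1984A-DMSO replicate 1, 2 and 3. Cdk6 lost its call without ICN1-DMSO replicate 1 (0.088), 2 (0.057) and 3 (0.11) and without R1984A-DMSO replicate 2 (0.15) and 3 (0.054), and Ccr7 without ICN1-DMSO replicate 3 (0.22) and R1984A-DMSO replicate 1 (0.11) and 2 (0.12). Runx3, Cdk6 and Ccr7 were called by limma with the replicate block and all arrays (blocked adjusted p = 0.015, 0.0094 and 0.0042). Of 37 pathway components, which include ligands, glycosyltransferases, secretase subunits and coactivators, 0 were called by limma, and 1 had an unadjusted p under 0.05. The smallest p in that list was that of the coactivator Maml3, at 0.26 (SE 0.12, adjusted p = 0.66), followed by the ligand gene Jag1 among those named, at -0.19 (SE 0.13, adjusted p = 0.93).

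The promoters of Ptcra, the called paired-site gene, and Serpinb8 are shown with the same marking because both windows hold more than 1 match. Ptcra is at chr17:46763663-46763962 on the minus strand and Serpinb8 at chr1:107589756-107590055 on the plus strand. These 2 and the 2 shown above were picked after their matches were seen.
Ptcra: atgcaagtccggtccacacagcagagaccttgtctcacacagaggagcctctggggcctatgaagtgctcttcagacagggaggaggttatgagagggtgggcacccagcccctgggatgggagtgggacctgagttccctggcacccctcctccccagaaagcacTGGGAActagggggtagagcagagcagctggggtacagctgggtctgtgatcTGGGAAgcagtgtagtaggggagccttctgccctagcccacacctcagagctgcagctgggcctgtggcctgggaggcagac
Serpinb8: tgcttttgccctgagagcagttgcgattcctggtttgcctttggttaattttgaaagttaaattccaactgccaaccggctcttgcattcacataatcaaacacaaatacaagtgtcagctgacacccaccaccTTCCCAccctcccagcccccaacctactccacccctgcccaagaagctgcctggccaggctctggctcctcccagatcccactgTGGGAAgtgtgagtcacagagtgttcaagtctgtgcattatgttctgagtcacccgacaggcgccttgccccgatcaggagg
Ptcra has 2 matches on the gene's own strand, starting 84 and 32 bases before the gene start, and Serpinb8 has 1 on each strand, starting 116 and 32 bases before it. Of the 52 lower genes 41 had a promoter window, and 14 of these (34.1%) held TGGGAA or TTCCCA, as did 34 of 113 (30.1%) for the higher genes and 27.1% of 15614 tested genes with a window. The head-to-head pair was searched for as TGGGAA followed by TTCCCA along the gene, with 15 to 20 bases between them. The reverse order was not searched. This pair was in 0 of the 41 and 0 of the 113, and in 0.032% of all tested genes with a window. At a share that low, a count of 0 was likely in lists of this size, so these counts cannot set either list apart. The windows of Ptcra, Nrarp and Hes5, linked above to paired sites, held no such pair either, so the search did not find the sites described for these genes. A match is a description of these letters, and binding of the complex was not measured.

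Of 57 measured genes of ribosome biogenesis and other Myc-associated growth genes 52 had negative differences, with a median of -0.26 against -9e-04 over all genes, and 19 had an unadjusted p under 0.05. limma called 2 lower and 0 higher, and 9 lower with the replicate block. In the main fit 3.51% were called lower, against 0.261% of all genes tested. Ndufaf4, an assembly factor of mitochondrial complex I, read 7.99, 8.02 and 7.87 in R1984A-DMSO, against 8.43, 8.69 and 8.53 in ICN1-DMSO (-0.59, SE 0.11, adjusted p = 0.0065). Rrp1b, a nucleolar protein of ribosomal RNA processing, was at -0.51 (SE 0.12, adjusted p = 0.028). Ndufaf4 lost its call without ICN1-DMSO replicate 2 (adjusted p = 0.055), and Rrp1b lost it without ICN1-DMSO replicate 1 (0.19) or 3 (0.12) and without R1984A-DMSO replicate 1 (0.19) or 3 (0.10). Leaving out 1 array moved the list's median between -0.31 and -0.19. Among 14 partners of the Myc network 1 was called (7.14%, against 0.963% of all genes tested). That was Mxd3, a repressor that competes with Myc for its partner Max. It was higher, with 5.10, 4.94 and 4.92 in R1984A-DMSO against 4.55, 4.35 and 4.24 in ICN1-DMSO (0.60, SE 0.11, adjusted p = 0.0054, or 0.059 without ICN1-DMSO replicate 3).

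**Figure D3:**
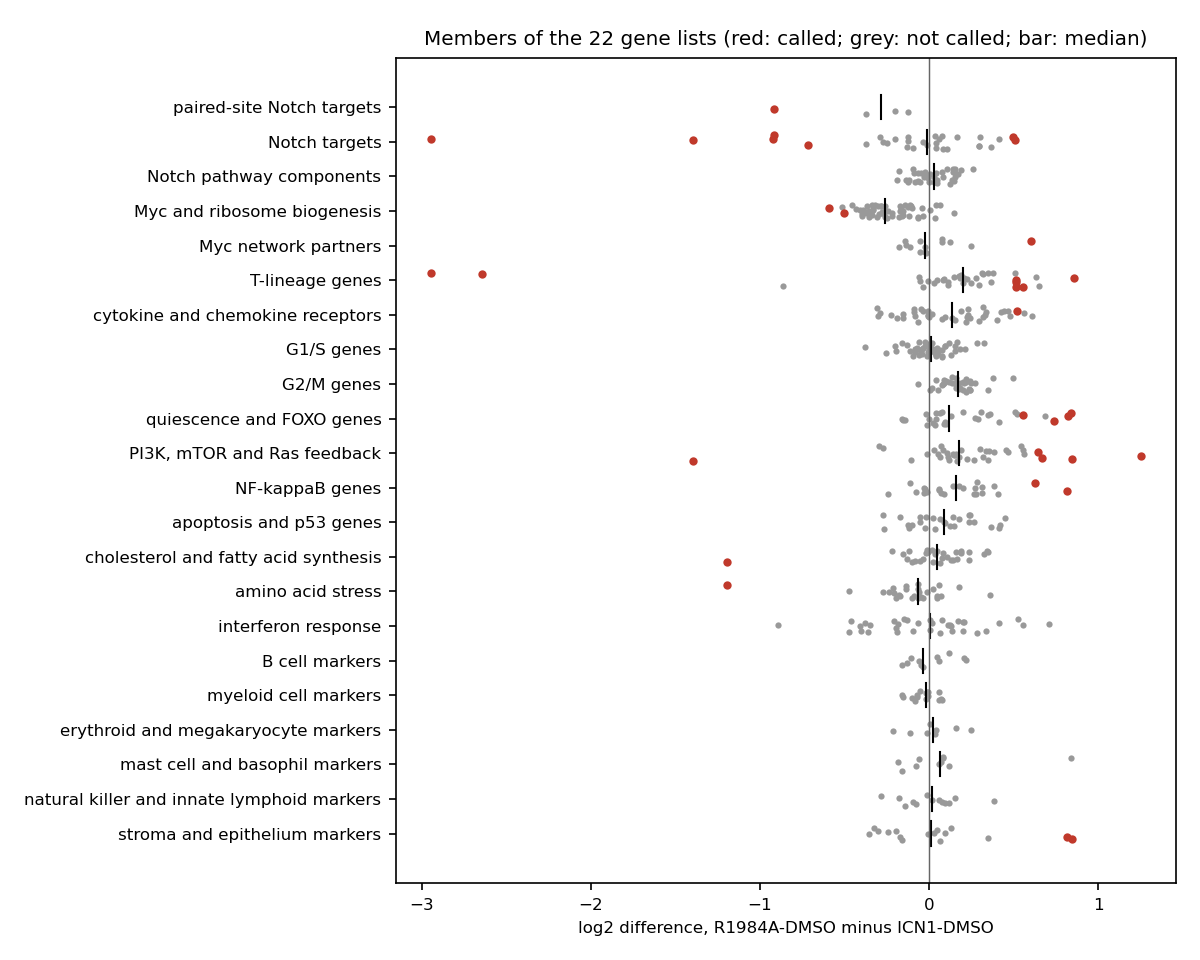
Log2 difference, R1984A-DMSO minus ICN1-DMSO, of the measured members of 22 gene lists (1 point per gene; red, called; grey, not called; black bar, list median). The Myc and ribosome biogenesis genes lie mostly left of 0 with a median of -0.26, and the G2/M genes mostly right of it with a median of 0.17.

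Of 36 measured G2/M genes limma called 0 (4 passed an unadjusted p of 0.05). Their differences were positive in 35 and negative in 1, with a median of 0.17, and with 0.07 to 0.24 when 1 array was left out. The lowest of these, with 8 of 36 negative, was without R1984A-DMSO replicate 2. With the replicate block 2 were called. Ccnb2, a mitotic cyclin, read 9.11, 9.18 and 9.13 in R1984A-DMSO, against 8.85, 8.73 and 8.70 in ICN1-DMSO (0.38, SE 0.11, adjusted p = 0.15; blocked adjusted p = 0.026). Cenpa, the centromeric histone, was at 0.50 (SE 0.20, adjusted p = 0.48; blocked adjusted p = 0.0045), and its groups overlapped. Of 47 G1/S genes 0 were called by limma (2 passed an unadjusted p of 0.05), the median was 0.01, and the 2 with the smallest p were E2f2, a cell-cycle transcription factor, at -0.38 (adjusted p = 0.43), and E2f7, a repressor of the same family, at 0.33 (adjusted p = 0.60). These expression values do not count cells in a phase.

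Of 36 measured T-lineage genes 5 were higher in R1984A-DMSO, 2 were lower (Rag1 and Rag2) and 29 were not called. The called share was 19.4%, against 0.963% of all genes tested. The difference was positive in 29, with a median of 0.20, and in GSI in 22, with a median of 0.09. With the replicate block 8 were higher and 3 lower, the third being Cd2, an adhesion receptor of T cells, at -0.86 (SE 0.26, adjusted p = 0.16; blocked adjusted p = 0.0063). Ikzf2, the transcription factor Helios, read 8.81, 8.98 and 8.93 in R1984A-DMSO, against 7.86, 8.26 and 8.03 in ICN1-DMSO, and 8.50, 8.62 and 8.78 in MigR1-DMSO (0.86, SE 0.15, adjusted p = 0.0036). Themis, which tunes T-cell receptor signals in thymocytes, was at 0.56 (SE 0.14, adjusted p = 0.049). The other 3, looked up after their values were seen, were the stem cell factor receptor Kit at 0.52 (SE 0.12, adjusted p = 0.030), the T-cell receptor adaptor Lcp2 at 0.51 (SE 0.10, adjusted p = 0.0060) and the transcription factor Ikzf1, Ikaros, at 0.51 (SE 0.11, adjusted p = 0.015). In Kit, Lcp2 and Ikzf1 the R1984A-DMSO arrays overlapped with MigR1-DMSO, and ICN1-DMSO was the low group.

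Of these calls, Ikzf2 and Lcp2 kept theirs in the 6 fits with 1 array left out, at adjusted p of up to 0.033 for Ikzf2. Themis and Kit lost theirs in each of the 6, at up to 0.35 for Themis (without ICN1-DMSO replicate 3) and 0.15 for Kit (without R1984A-DMSO replicate 3). Ikzf1 lost its call without ICN1-DMSO replicate 1 (0.068) or 3 (0.091) and without R1984A-DMSO replicate 1 (0.054) or 2 (0.10). The list held 2 to 3 higher and 2 lower genes in those fits. Themis, Kit and Ikzf1 were called by limma with the replicate block and all arrays (blocked adjusted p = 0.017, 0.0058 and 0.0045).

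Tmem273, which encodes a membrane protein, had the largest rise, with 7.84, 7.82 and 7.59 in R1984A-DMSO, against 5.69, 5.80 and 4.65 in ICN1-DMSO, and 6.69, 6.52 and 5.65 in MigR1-DMSO. It was 5.18-fold higher than in ICN1-DMSO (2.37, SE 0.34, adjusted p = 3.6e-04) and higher than in MigR1-DMSO too (1.46, SE 0.34, adjusted p = 0.033), and the 3 arrays of R1984A-DMSO were the highest of the 9. Slc15a1, a peptide transporter, was higher by 3.43-fold with 7.84, 7.98 and 7.50 in R1984A-DMSO against 6.15, 6.29 and 5.56 in ICN1-DMSO (1.78, SE 0.34, adjusted p = 0.0062). Its R1984A-DMSO arrays lay above those of MigR1-DMSO (7.29, 7.47 and 7.19), which in turn lay above those of ICN1-DMSO. Its call against ICN1-DMSO was lost without ICN1-DMSO replicate 3 (0.069) or R1984A-DMSO replicate 2 (0.051). Lrrc6, a factor of cilia assembly, read 6.31, 6.83 and 6.43 in R1984A-DMSO, against 5.13, 5.81 and 4.68 in ICN1-DMSO, and 6.24, 6.58 and 6.92 in MigR1-DMSO, where R1984A-DMSO overlapped with the empty vector and ICN1-DMSO was the low group (1.32, SE 0.29, adjusted p = 0.021). It lost its call without ICN1-DMSO replicate 1 (0.096) or 3 (0.21) and without R1984A-DMSO replicate 2 (0.15) or 3 (0.057).

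**Figure D4:**
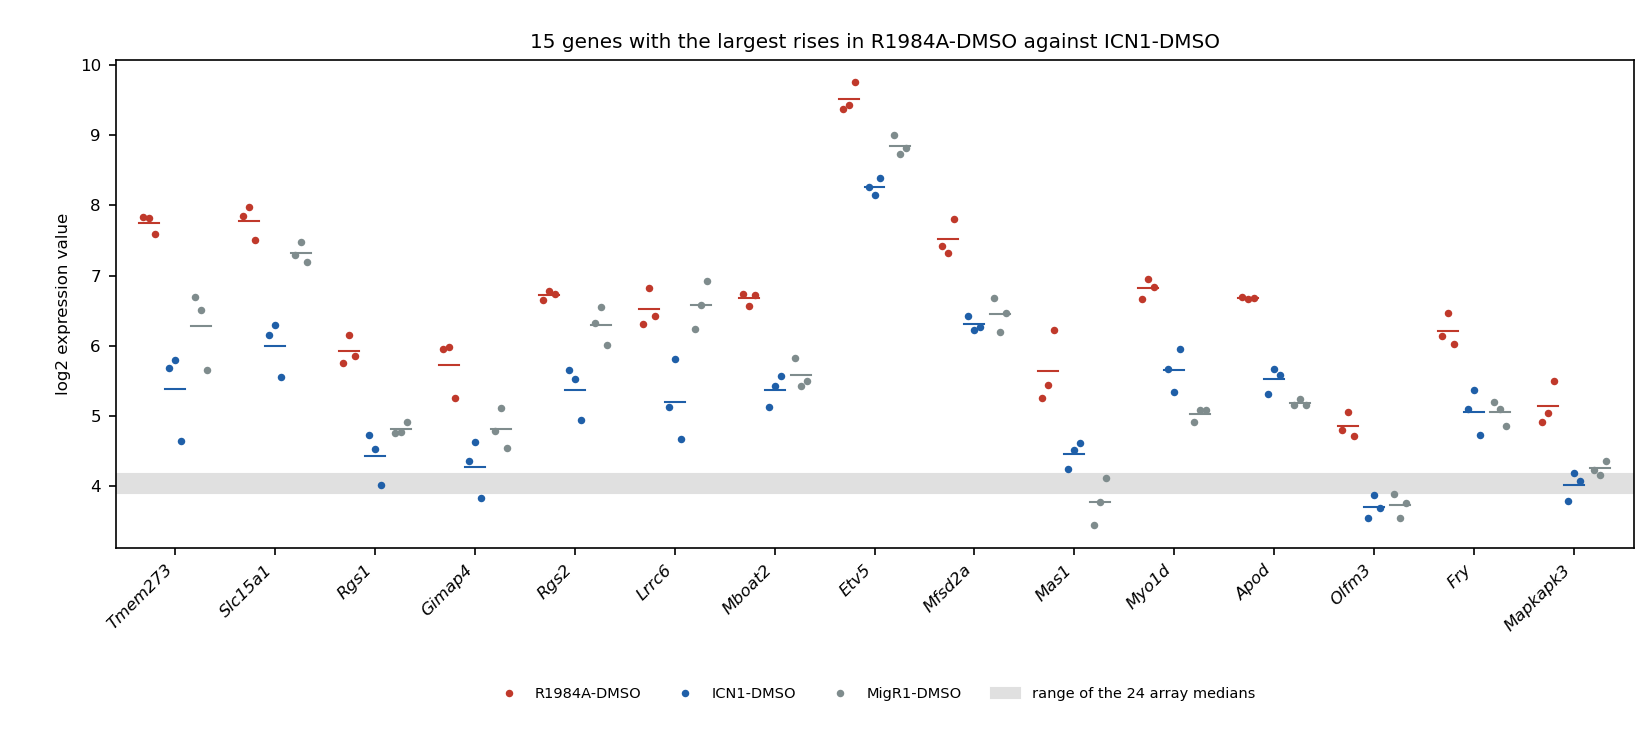
Log2 expression value of the 15 genes with the largest rises, by array, in R1984A-DMSO, ICN1-DMSO and MigR1-DMSO (points, 3 arrays each; bars, group means; grey band, range of the 24 array medians). The R1984A-DMSO points lie above the ICN1-DMSO points in each gene, and the MigR1-DMSO points lie at the ICN1-DMSO level in Olfm3 and Fry and at the R1984A-DMSO level in Lrrc6.

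Rgs1 and Rgs2, which shorten G-protein signals, were among the rises. Rgs1 read 5.75, 6.15 and 5.85 in R1984A-DMSO, against 4.73, 4.53 and 4.02 in ICN1-DMSO, and 4.76, 4.78 and 4.92 in MigR1-DMSO (1.49, SE 0.17, adjusted p = 2.2e-05). Rgs2 read 6.65, 6.77 and 6.74 in R1984A-DMSO, against 5.65, 5.53 and 4.94 in ICN1-DMSO, and 6.32, 6.55 and 6.02 in MigR1-DMSO (1.35, SE 0.24, adjusted p = 0.0038). In both genes the R1984A-DMSO arrays were the highest and the ICN1-DMSO arrays the lowest of the 9, and ICN1-DMSO was not called against the empty vector (-0.39, adjusted p = 0.72 for Rgs1 and -0.92, adjusted p = 0.092 for Rgs2). Of 20 measured genes with an Rgs symbol 3 were higher, where 0.702% of all genes tested were called higher. The third was Rgs3 at 0.79 (SE 0.12, adjusted p = 6.5e-04), and the median of the 20 was 0.00. Gimap4, a GTPase of lymphocytes, read 5.95, 5.98 and 5.26 in R1984A-DMSO, against 4.36, 4.63 and 3.84 in ICN1-DMSO (1.45, SE 0.25, adjusted p = 0.0024). Its family had 8 measured members, of which 3 were higher (Gimap4, Gimap8 at 0.91 and Gimap9 at 0.89), against the same 0.702% of all genes. In this family 8 of 8 were positive and the median was 0.67. Both families were picked after their values were seen. Gimap8 read 3.78, 4.40 and 3.73 in ICN1-DMSO, near the array medians, so its size is uncertain. The calls of Gimap8 and Gimap9 were lost without ICN1-DMSO replicate 1 (adjusted p = 0.085 and 0.062) or 3 (0.11 and 0.13) and without R1984A-DMSO replicate 2 (0.11 and 0.099).

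Etv5, a transcription factor induced by Ras and ERK signals, was bright and tightly measured, with 9.38, 9.42 and 9.76 in R1984A-DMSO, against 8.26, 8.15 and 8.39 in ICN1-DMSO, and a mean of 8.85 in MigR1-DMSO. It was 2.38-fold higher in R1984A-DMSO than in ICN1-DMSO (1.25, SE 0.12, adjusted p = 3.5e-06). Against the empty vector it was higher in R1984A-DMSO (0.67, SE 0.12, adjusted p = 0.0040) and lower in ICN1-DMSO (-0.58, SE 0.12, adjusted p = 0.023), both called. Of 37 genes of PI3K, mTOR and Ras feedback 4 were higher, 1 was lower (Deptor, above) and 32 had positive differences, with a median of 0.18. The called share was 13.5%, against 0.963% of all genes tested, a low baseline here because 36 of the 37 lay above the median mean level. The other higher ones were Dusp4, a phosphatase that turns off ERK, at 0.84 (SE 0.18, adjusted p = 0.021), Pik3cg, a PI3-kinase subunit, at 0.67 (SE 0.15, adjusted p = 0.024), and Inpp5d, the phosphatase SHIP1, looked up afterwards, at 0.65 (SE 0.13, adjusted p = 0.0094). Dusp4, Pik3cg and Inpp5d lost their calls without ICN1-DMSO replicate 3 (0.20, 0.22 and 0.11) and without R1984A-DMSO replicate 2 (0.079, 0.16 and 0.075), and Dusp4 and Pik3cg also without ICN1-DMSO replicate 2 (0.055 and 0.071) and R1984A-DMSO replicate 1 (0.13 and 0.13). In those fits the list held 1 to 4 higher genes. Centring arrays on their medians left 1 higher gene of the list.

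A further set of rises stood above both ICN1-DMSO and the empty vector. Apod, a lipid carrier, read 6.69, 6.66 and 6.68 in R1984A-DMSO, against 5.31, 5.67 and 5.59 in ICN1-DMSO, and 5.16, 5.24 and 5.15 in MigR1-DMSO (1.16, SE 0.17, adjusted p = 6.1e-04). Mboat2, an acyltransferase of phospholipids, read 6.73, 6.57 and 6.72 in R1984A-DMSO, against 5.13, 5.43 and 5.56 in ICN1-DMSO (1.30, SE 0.18, adjusted p = 1.6e-04). Both were also called above MigR1-DMSO, Apod by 1.49 (adjusted p = 2.7e-05) and Mboat2 by 1.09 (adjusted p = 9.6e-04), where ICN1-DMSO was at 0.34 and -0.21 and not called. Mfsd2a, a transporter of lysophospholipids, was higher by 2.31-fold (1.21, SE 0.17, adjusted p = 2.1e-04), and was 1.07 above MigR1-DMSO. The secreted glycoprotein gene Olfm3 (1.15, SE 0.15), the microtubule-binding protein gene Fry (1.15, SE 0.18) and the kinase gene Mapkapk3 (1.13, SE 0.20) were also higher, with adjusted p of at most 0.0038 and the R1984A-DMSO arrays above those of both other groups. In ICN1-DMSO the arrays of Olfm3 lay below the range of the array medians and the mean of Mapkapk3 lay within it, so their sizes are uncertain.

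Mas1, a G-protein-coupled receptor, stood at 5.26, 5.45 and 6.23 in R1984A-DMSO, against 4.24, 4.52 and 4.61 in ICN1-DMSO, and 3.44, 3.77 and 4.12 in MigR1-DMSO. Its 3 groups did not overlap, and the call against ICN1-DMSO (1.19, SE 0.22, adjusted p = 0.0044) was kept in the fits with 1 array left out (adjusted p up to 0.036). Myo1d, an unconventional myosin, was at 1.17 (SE 0.25, adjusted p = 0.017), with 6.67, 6.96 and 6.84 in R1984A-DMSO against 5.67, 5.34 and 5.95 in ICN1-DMSO. It lost its call without ICN1-DMSO replicate 1 (0.063) or 2 (0.12) and without R1984A-DMSO replicate 2 (0.099) or 3 (0.061). Pdgfrb, the platelet-derived growth factor receptor beta, is listed here as a stroma marker and was bright in these cells, at 8.89 to 9.16 in R1984A-DMSO, against 7.89 to 8.62 in ICN1-DMSO, and 6.97 to 7.20 in MigR1-DMSO. It followed the order R1984A-DMSO, ICN1-DMSO, empty vector, with a difference of 0.84 between the constructs (SE 0.15, adjusted p = 0.0046) and of 1.92 and 1.08 from MigR1-DMSO.

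Genes linked to quiescence and FOXO factors were higher where they were called. Of 30 measured genes 4 were higher, 0 were lower and 24 had positive differences, with a median of 0.12, and 7 were higher with the replicate block. In the main fit 13.3% were called higher, against 0.702% of all genes tested. Ccng2, an atypical cyclin that rises as cells leave the cycle, read 5.60, 6.06 and 5.89 in R1984A-DMSO, against 5.11, 5.17 and 4.76 in ICN1-DMSO (0.84, SE 0.16, adjusted p = 0.0081). Txnip, a regulator of glucose uptake, read 7.50, 7.70 and 7.56 in R1984A-DMSO, against 6.84, 6.90 and 6.81 in ICN1-DMSO (0.74, SE 0.14, adjusted p = 0.0077). The repressor Bcl6 was at 0.82 (SE 0.18, adjusted p = 0.021) and the stress sensor Sesn3 at 0.55 (SE 0.13, adjusted p = 0.028). Each of the 4 lost its call in some fits, Ccng2 without ICN1-DMSO replicate 3 (0.095) or R1984A-DMSO replicate 2 (0.079), Txnip without the same arrays (0.052 and 0.065), Bcl6 without ICN1-DMSO replicate 1 (0.13) or 2 (0.10) or R1984A-DMSO replicate 2 (0.14) or 3 (0.098), and Sesn3 in each of the 6, at up to 0.14. The list held 0 to 3 higher genes in the fits with 1 array left out, and 1 when arrays were centred on their medians.

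Immune signalling genes changed singly. Of 24 NF-kappaB genes 2 were higher, the cytokine gene Ltb at 0.82 (SE 0.17, adjusted p = 0.014) and the NF-kappaB subunit gene Rel at 0.62 (SE 0.13, adjusted p = 0.017), and of 41 cytokine and chemokine receptors 1 was higher, Il17ra at 0.52 (SE 0.12, adjusted p = 0.027), or 4 with the replicate block. In the main fit 8.33% of the first list and 2.44% of the second were called, against 0.963% of all genes tested. Ltb lost its call without ICN1-DMSO replicate 2 (0.082) or 3 (0.080) and without R1984A-DMSO replicate 1 (0.11) or 2 (0.054). Rel lost it without ICN1-DMSO replicate 1 (0.065), 2 (0.055) or 3 (0.10) and without R1984A-DMSO replicate 3 (0.14), and Il17ra without each array but ICN1-DMSO replicate 3, at up to 0.19. Of 35 interferon-response genes 0 were called by limma (8 passed an unadjusted p of 0.05), while the block gave 2 higher and 4 lower. Their smallest p-values were those of Rsad2, at -0.41 (SE 0.12, adjusted p = 0.14; blocked adjusted p = 0.045), and Gbp4, a GTPase, at 0.71 (SE 0.24, adjusted p = 0.26; blocked adjusted p = 0.0084). Of 27 apoptosis and p53 genes 0 were called by limma (4 passed an unadjusted p of 0.05), and the block gave 2, Trp53inp1 at 0.45 (SE 0.11, adjusted p = 0.059; blocked adjusted p = 0.016) and the survival gene Bcl2 at 0.41 (SE 0.11, adjusted p = 0.076; blocked adjusted p = 0.0091). Bcl2 read 8.12, 7.95 and 7.94 in R1984A-DMSO, against 7.62, 7.64 and 7.51 in ICN1-DMSO, and 8.41, 8.35 and 8.12 in MigR1-DMSO, so ICN1-DMSO was the low group.

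Markers of other blood cells showed no calls. limma called 0 of 11 B cell, 16 myeloid, 8 erythroid and megakaryocyte, 10 mast cell and basophil, and 13 natural killer and innate lymphoid markers. An unadjusted p of 0.05 was passed by 0, 0, 0, 1 and 1 of them, in that order. The B cell gene Cd79a was dim in both groups, at 3.14, 2.88 and 2.51 in R1984A-DMSO and 2.62, 2.68 and 2.56 in ICN1-DMSO. Cpa3, a mast cell protease, was at 0.84 (SE 0.26, adjusted p = 0.17), and the mast cell receptor gene Fcer1a stood at a mean of 2.47 in R1984A-DMSO and 2.63 in ICN1-DMSO, below every array median. Of 16 stroma and epithelium markers 2 were higher, Pdgfrb and the adhesion gene Pecam1 (0.82, SE 0.18, adjusted p = 0.021), with a median of 0.01, and the second lost its call without ICN1-DMSO replicate 2 (0.096) or 3 (0.12) and without R1984A-DMSO replicate 1 (0.11) or 2 (0.12). The share called higher was 12.5%, against 0.702% of all genes tested.

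The same constructs in GSI, measured in 6 other arrays, gave differences of nearly the same size. R1984A-GSI differed from ICN1-GSI in 220 genes (1.1% of those tested), 156 higher (0.782%) and 64 lower (0.321%), a split that became 165 and 123 after a further quantile normalization and 57 and 42 after centring. Of the 52 genes lower in DMSO 43 were called lower in GSI, which is 82.7% of the DMSO list and 67.2% of the GSI list. Of the 140 genes higher in DMSO 92 were called higher in GSI, 65.7% and 59.0% of the lists. Both lists came from 1 fit with a shared spread per gene, so their overlap is not that of independent tests. Deviations of same-numbered DMSO and GSI arrays correlated at 0.32, 0.005 and 0.54 in R1984A and at 0.27, 0.08 and 0.35 in ICN1. The sign was the same for 52 of 52 and 138 of 140 genes, where 50.3% of all genes were positive in GSI, and 0 genes were called in opposite directions. Across all genes the differences in DMSO and GSI correlated with r of 0.54, and with 0.38 over the 19661 genes called in neither, as a description across genes that come from the same arrays and are not independent.

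**Figure D5:**
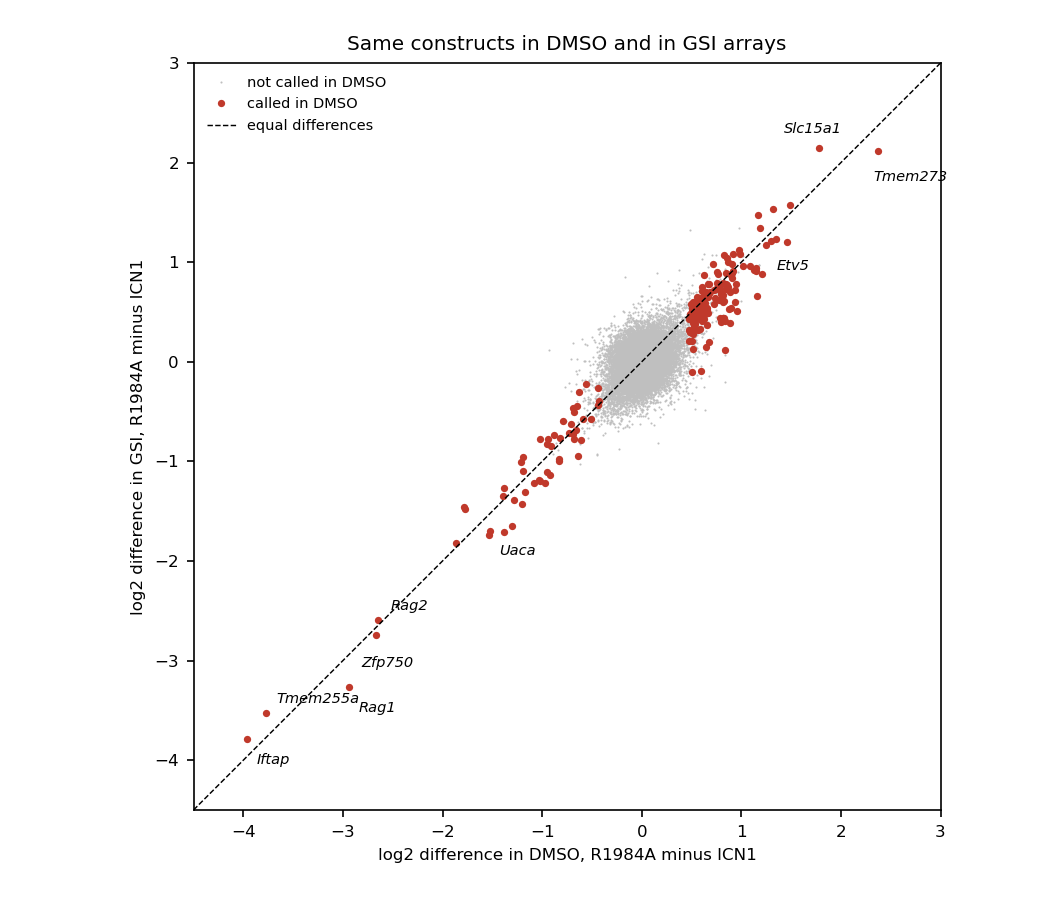
Log2 difference, R1984A minus ICN1, in GSI (vertical) against DMSO (horizontal), 1 point per gene (red, called in DMSO; grey, not called in DMSO; dashed line, equal differences). The red points follow the line, with Iftap, Tmem255a and Rag1 at the lower left and Tmem273 at the upper right.

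Iftap was at -3.79 in GSI, Tmem255a at -3.52, Rag1 at -3.27, Zfp750 at -2.75 and Rag2 at -2.59, each close to its DMSO value. Among rises, Tmem273 was at 2.11, Slc15a1 at 2.15, Rgs1 at 1.57 and Etv5 at 1.17. Among Notch targets in GSI, Myc was at -1.14 (SE 0.21, adjusted p = 0.0052), Ptcra at -0.85 (SE 0.17, adjusted p = 0.0082) and Deptor at -1.35 (SE 0.15, adjusted p = 1.7e-05), while Hey1 was at -0.02, Il2ra at 0.24 and Nrarp at -0.25, not called. Hes1 was called in GSI, at -0.71 (SE 0.14, adjusted p = 0.0082), and not in DMSO, at -0.37. The change of its difference between GSI and DMSO was itself -0.34 (95% interval -0.75 to 0.07) and was not called. In the test of whether the construct difference differed between GSI and DMSO limma called 0 genes (460 passed an unadjusted p of 0.05), and 0 under each alternative run. Mxd3 had the smallest p of that test among the genes described here, at -0.69 (95% interval -1.02 to -0.36, unadjusted p = 2.4e-04, adjusted p = 1.00), with means of 4.61 in R1984A-GSI and 4.70 in ICN1-GSI.

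Against the empty vector in DMSO, which shares its arrays with the comparison above, R1984A-DMSO differed in 195 genes (0.978%), 173 higher (0.868%) and 22 lower (0.11%), and ICN1-DMSO in 145 (0.727%), 84 higher (0.421%) and 61 lower (0.306%). With the replicate block these counts were 366 and 297. Iftap was at -0.48 in R1984A-DMSO (adjusted p = 0.87) and at 3.48 in ICN1-DMSO (adjusted p = 6.0e-08), each against MigR1-DMSO. Rag1 was at -0.44 (adjusted p = 0.93) and 2.50 (adjusted p = 4.7e-05), and Zfp750 at 0.41 (adjusted p = 0.46) and 3.07 (adjusted p = 1.5e-11). Serpinb8 was at 0.61 (adjusted p = 0.15) and 2.13 (adjusted p = 7.4e-08), and Sqle at 0.06 and 1.25 (adjusted p = 2.1e-05). In these 5 genes ICN1-DMSO was called above the empty vector and R1984A-DMSO was not, and their direct comparison is the one given above. Leaving out 1 array gave 130 to 155 genes for R1984A-DMSO and 79 to 105 for ICN1-DMSO, the last with 79, 80, 91 and 95 without MigR1-DMSO replicate 2, ICN1-DMSO replicate 3, MigR1-DMSO replicate 3 and MigR1-DMSO replicate 1.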

How the data were processed

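RNA was measured on Affymetrix Mouse Gene 1.0 ST arrays, and the values deposited by the authors are on a log2 scale. They were made with the packages oligo and limma, per the submitters' processing notes, while for background correction and normalization no step was stated. The log2 scale was read from the range of the values, and they were used without further scaling. Of 35556 probe sets 21789 had 1 gene symbol in the platform annotation, 1621 had more than 1 and 12146 had none listed, and 21698 of the first matched a RefSeq gene identifier. Where a gene had several probe sets (999 genes), the one brightest on average over the 24 arrays was kept.

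The 24 arrays (8 groups of 3) entered a single limma fit (version 3.58.1, R 4.3.3) of group means, in which a gene's spread was pooled over the groups. The fit was also run on simulated data with independent noise and no replicate effect. That run does not cover the replicate correlations given next. Groups and replicate numbers come from the titles. In the 2 constructs in DMSO, the deviations of same-numbered samples from their groups correlated at 0.25, 0.19 and 0.43, each above 0.1, so the blocked counts stand beside the main ones. Against MigR1-DMSO these correlations were 0.20 to 0.52 for R1984A-DMSO and 0.14 to 0.42 for ICN1-DMSO. Nothing says that the samples of a group were separate cultures, so the p-values reflect the spread among these arrays alone, possibly a technical one. With 3 arrays a group, their number limits the precision.

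The comparison, the 22 lists and the rule for named genes were chosen with earlier results of these data known. The rule takes up to 15 called genes each way whose arrays do not overlap, without genes known by a clone name, small RNAs or antigen receptor segments, then paired-site genes and 9 further Notch targets (Cdkn1a was not used here), up to 4 called members of each other list or, with none called, the 2 with the smallest p. Notch1, Maml1 and Rbpj served as checks of the labels. Alternatives were quantile normalization, median centring, a filter on dim genes, every probe set, an intensity trend, array weights, the replicate block, only the groups compared, and leaving out each array.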

Additional observations from a re-analysis of the deposited data

How the results depend on the processing

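Of the 70 genes named as called between R1984A-DMSO and ICN1-DMSO, 34 stayed called under each alternative run and 0 changed sign, with 14 alternatives a gene, or 13 for Iftap, Rag2, Il10, Fbp1 and Olfm3, which the filter on dim genes left out. Sign changes were in genes not called: Dtx1 lay between -0.0062 (without R1984A-DMSO replicate 1) and 0.108 (without its replicate 3) with 1 array left out, Il2ra between -0.0402 and 0.122 (without ICN1-DMSO replicate 1 and 3), and Igf1r between -0.0923 and 0.0918 (without R1984A-DMSO replicate 2 and 3), with 0.0212 without ICN1-DMSO replicate 3 and 0.0327 with array weights. The cause was not tested. The 192 genes between the constructs in DMSO became 116 (78 higher, 38 lower) with arrays centred on their medians, 384 (292, 92) with array weights and 456 (322, 134) with the replicate block, and 99 to 145 with 1 array left out. The split of 72.9% higher was 60.0% without R1984A-DMSO replicate 2. The 220 genes in GSI became 99 with centring, 739 with array weights, 577 with the replicate block, 51 with only the groups compared (25 higher, 26 lower) and 115 to 184 with 1 array left out, with the lowest counts, 115, 122 and 132, without ICN1-GSI replicate 3, R1984A-GSI replicate 2 and R1984A-GSI replicate 3. In GSI the deviations of same-numbered samples of the 2 constructs correlated at 0.45, 0.06 and 0.45. What same-numbered samples share was not stated in the labels. Against MigR1-DMSO, R1984A-DMSO had 338 genes with array weights, 366 with the replicate block and 129 with only the groups compared, against 195, and 130 to 155 with 1 array left out. ICN1-DMSO had 88 (67 higher, 21 lower) with centring, 316 with array weights and 297 with the replicate block, against 145, and 79 to 105 with 1 array left out. Genes near or below the array medians limit the sizes given for the largest falls, and 3 arrays a group limit calls of small differences.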

Other observations

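Some called genes outside the lists, picked after their values were seen, encode regulators of lymphocyte signalling. Id3, an inhibitor of the E proteins that set T-lineage genes, averaged 6.09 ± 0.13 in R1984A-DMSO and 5.16 ± 0.32 in ICN1-DMSO (SD, 3 arrays each), a difference of 0.94 (SE 0.20, adjusted p = 0.015). Nr4a1, a nuclear receptor induced by T-cell receptor signals, was higher by 0.82 (SE 0.15, adjusted p = 0.0058), and Smad3, a mediator of TGF-beta signals, by 0.63 (SE 0.11, adjusted p = 0.0038). Gadd45a, a stress-induced gene, averaged 7.47 ± 0.08 in R1984A-DMSO and 6.84 ± 0.12 in ICN1-DMSO, a difference of 0.62 (SE 0.11, adjusted p = 0.0030), with MigR1-DMSO at 7.43. Id3 lost its call without ICN1-DMSO replicate 1 (0.097) or 3 (0.12) and R1984A-DMSO replicate 1 (0.087) or 2 (0.073), and Nr4a1 without ICN1-DMSO replicate 2 (0.051).

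Surface and inflammasome genes were also among those called. Cd160, a receptor of natural killer and T cells, was higher by 1.08 (SE 0.23, adjusted p = 0.016), and Cd96, a receptor of the same cells, by 0.80 (SE 0.15, adjusted p = 0.0047). Nlrp3, an inflammasome sensor, averaged 5.31 ± 0.10 in R1984A-DMSO and 4.35 ± 0.20 in ICN1-DMSO, 0.96 higher (SE 0.17, adjusted p = 0.0044), and P2rx7, the ATP-gated channel upstream of it, was higher by 0.58 (SE 0.13, adjusted p = 0.027). Cd82, a tetraspanin, was at -0.83 (SE 0.19, adjusted p = 0.031), with means of 8.51 in R1984A-DMSO, 9.33 in ICN1-DMSO and 7.88 in MigR1-DMSO, and Axin2, a feedback inhibitor of Wnt signalling, at -0.66 (SE 0.14, adjusted p = 0.015). Calls were lost for Cd160 without ICN1-DMSO replicate 3 (0.14) or R1984A-DMSO replicate 1 (0.090) or 2 (0.077), for Cd96 without ICN1-DMSO replicate 3 (0.056), for Axin2 without ICN1-DMSO replicate 1 (0.057) or 3 (0.11) or R1984A-DMSO replicate 3 (0.12), and for P2rx7 and Cd82 in 6 and 5 of the 6 fits with 1 array left out, at up to 0.18 and 0.17.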
